A study of Homo sapiens with 18 samples.

Results

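The comparison described here is C-peptide alone for 48 h, and it covers 6 of the 18 arrays of the study: 3 from HK-2 cells that received 5 nM C-peptide for 48 h and 3 from cells that received no agonist over the same 48 h. The members were chosen by the treatment and time that the sample titles give. HK-2 is an immortalised line of human proximal tubule epithelium, so every group is a single cell line in culture, and each array carries the RNA of 1 separate flask. All flasks were kept in medium with 5 mM glucose and lost their serum overnight before agonists were added. None of the 6 arrays had TGF-beta1. The other 12 arrays hold TGF-beta1 at 2 ng/mL for 48 h, both agents for 48 h, the same dose of C-peptide for 18 h, and untreated flasks of the 18 h incubation, 3 flasks each. They are used here to estimate the spread and to ask whether a difference was also seen with TGF-beta1 or at 18 h.

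C-peptide is the connecting segment cut out of proinsulin when insulin is made, and beta cells release it together with insulin. In kidney tubule cells it has been described to act at the cell membrane through G protein signalling, with protein kinase C, ERK, PI 3-kinase and Akt, endothelial nitric oxide synthase and PPAR gamma named as downstream effectors. The proximal tubule is the part of the nephron that takes up most of the filtered C-peptide.

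Treatment coincided with a consecutive run of array numbers. The headers name no chip or slide, so a set of arrays here means only such a run. Ranked by the numbers in the table header, the 48 h controls were arrays 1 to 3, TGF-beta1 arrays 4 to 6, C-peptide arrays 7 to 9, both agents arrays 10 to 12 and the 18 h groups arrays 13 to 18, so the treatment and the set of arrays cannot be told apart. The mean signal was 343.7, 311.5 and 307.3 intensity units on the control arrays and 263.8, 261.2 and 280.7 on the C-peptide arrays, which were dimmer without overlap. Among 31728 probes that no array detected, the SD was 6.69, 6.23 and 6.5 units against 5.47, 5.15 and 5.32, again without overlap. Detected probes overlapped, at 14985 to 15818 and 14912 to 15548 of 48803. The part of these differences in the changes below was not tested. The HK-2 markers KRT8, KRT18, PAX8, CDH6 and GGT1 were detected on all 18 arrays, whereas the proximal tubule genes ANPEP, LRP2, CUBN and AQP1 were detected on 0 of them. Of 10 markers per cell type, 4 were tested for fibroblasts, and 2 each for leukocytes, the distal tubule and endothelium, and 0 of these 10 tested genes were called by limma (lowest adjusted p = 0.338). The fibroblast marker LUM changed by 0.14 on its brightest probe, but a dimmer probe of it passed at 1.13 (SE 0.20, limma adjusted p = 0.0012); the other fibroblast, leukocyte, distal tubule and endothelial markers had no passing probe.

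Of 12463 genes tested, 662 (5.31%) differed between C-peptide and control at 48 h at an adjusted p under 0.05 in limma, of which 476 (3.82%) were higher and 186 (1.49%) lower with C-peptide. At an unadjusted p under 0.05 there were 2795 (22.4%). The median change was 0.54 on the log2 scale among the higher genes, -0.41 among the lower genes and -0.04 over all genes. A change of at least 2-fold was reached by 12 called genes, and all 12 were higher. Among all genes, the 3 C-peptide arrays lay above the 3 controls for 1688 (13.5%) and below them for 2236 (17.9%). Each gene was read on its brightest probe, and the dimmer probes of the same genes often moved otherwise. Of 3859 such probes 318 passed as higher (8.24%) and 42 as lower (1.09%) in limma, and 288 of the 318 belonged to genes not called on the brightest probe. Of 180 dimmer probes of called genes, 31 passed in the same direction, 2 in the opposite direction, and 125 had the same sign. In bulk RNA, fewer cells of a kind and less RNA per cell cannot be told apart. Single arrays decided many calls: 196 genes (188 higher, 8 lower), 338 (291 and 47) and 1008 (562 and 446) were called without C-peptide replicates 1, 2 and 3. Without control replicates 1, 2 and 3 there were 398 (359 and 39), 280 (255 and 25) and 238 (215 and 23). Without any 1 of the 6 arrays, 168 of the 476 higher genes and 5 of the 186 lower genes kept their call.

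CAPZA1, PTMA, TDP2, PPIB and SUCO were among the protein-coding genes with the largest rises, and 6 of the 15 largest rises were pseudogenes. CAPZA1, the alpha subunit of the protein that caps growing actin filament ends, read 8.58, 8.47 and 8.62 in log2 intensity on the control arrays and 9.68, 9.71 and 9.75 with C-peptide. The groups lay far apart with little spread, a 2.23-fold rise (log2 change 1.16, SE 0.11, limma adjusted p = 8.69e-06). PTMA, which encodes prothymosin alpha, an acidic nuclear protein that binds linker histone, read 10.82, 10.68 and 10.72 in controls and 11.92, 11.76 and 11.74 with C-peptide. It rose 2.09-fold (SE 0.08 on the log2 scale) with an adjusted p of 5.84e-07 in limma.

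TDP2, a phosphodiesterase that frees DNA ends from trapped topoisomerase, read 6.99, 6.50 and 6.61 in controls and 8.01, 7.77 and 7.73 with C-peptide. It rose 2.2-fold (SE 0.15 on the log2 scale, limma adjusted p = 0.000148), and its second probe also rose, by 0.68. PPIB, a cyclophilin of the endoplasmic reticulum that helps collagen fold, rose from 6.33, 6.60 and 6.12 to 7.83, 7.40 and 7.20, the C-peptide arrays spreading more than for CAPZA1 (SE 0.20, limma adjusted p = 0.00167). SUCO, a membrane protein of the endoplasmic reticulum, rose from 6.995, 6.84 and 6.62 to 7.92, 7.67 and 7.83, but its second probe, at 0.45, did not pass (limma adjusted p = 0.346).

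HLA-G, an MHC class I gene whose probe may also take up RNA of other class I genes, read 7.96, 7.52 and 7.57 in controls and 8.82, 8.75 and 8.58 with C-peptide. The rise was 2.05-fold (SE 0.12 on the log2 scale, limma adjusted p = 6.13e-05). UGT2B10, a glucuronosyltransferase gene whose probe may take up RNA of its near relatives, was detected on 1 of 3 control arrays and on 3 of 3 with C-peptide, and DNAJC2, a chaperone partner at the ribosome, read 5.89, 5.96 and 5.92 in controls and 7.20, 6.74 and 6.74 with C-peptide. These were the only 2 of the 15 largest rises that lost the call when some 1 array was left out (highest limma adjusted p = 0.053 for UGT2B10 and 0.0810 for DNAJC2).

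**Figure D1:**
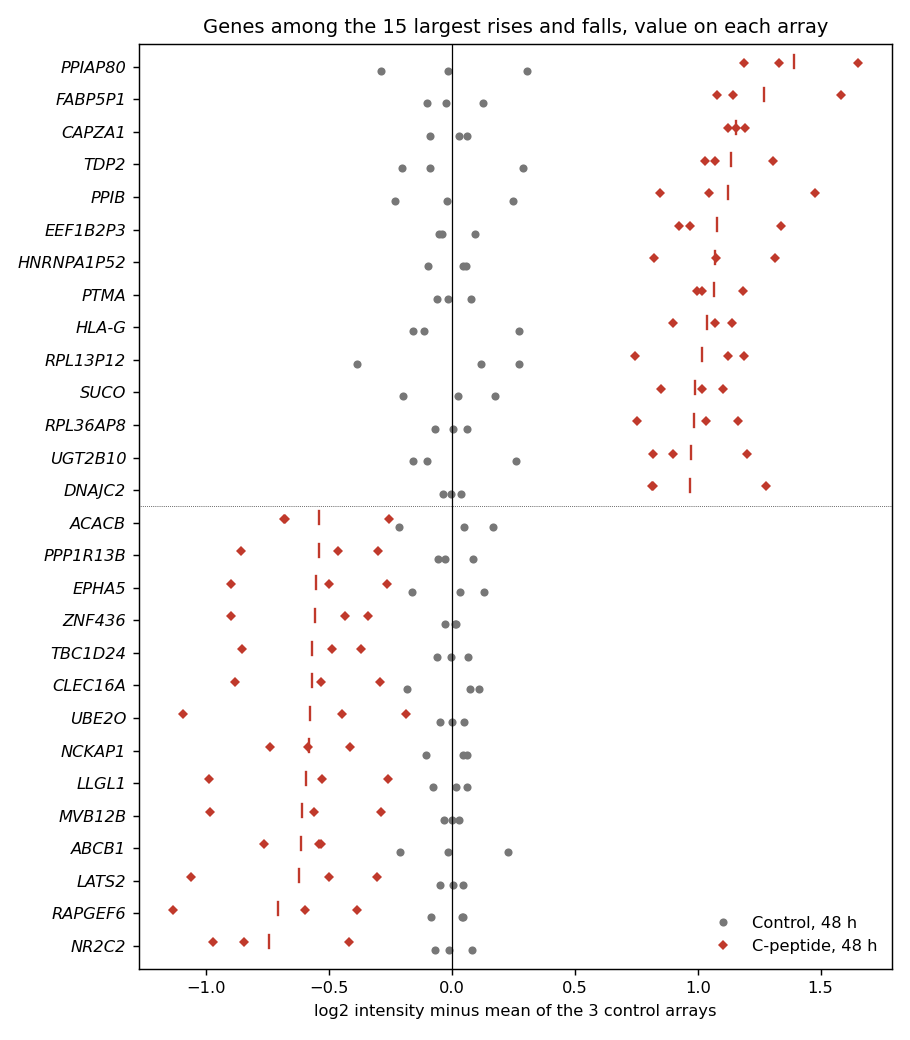
Log2 intensity of each array minus the mean of the 3 control arrays (x axis) for genes named here among the 15 with the largest rise and the 15 with the largest fall of the called genes whose groups did not overlap. Grey circles are the 3 controls, red diamonds the 3 C-peptide arrays and red bars their mean; CAPZA1 has the tightest C-peptide points of the rises, and the falls are smaller.

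The falls were smaller. NR2C2, an orphan nuclear receptor, fell from 7.40, 7.55 and 7.46 to 7.05, 6.62 and 6.50 (log2 change -0.75, SE 0.21, limma adjusted p = 0.0418). RAPGEF6, an exchange factor for the GTPase RAP1, fell from 7.57, 7.44 and 7.57 to 6.39, 6.93 and 7.14. LATS2, a Hippo pathway kinase that restrains YAP, fell from 7.62, 7.57 and 7.66 to 6.56, 7.12 and 7.32. In both genes the first C-peptide array was the lowest. Groups that do not overlap were a condition for naming the largest rises and falls.

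ABCB1, the P-glycoprotein efflux pump, fell from 10.58, 10.39 and 10.83 to 9.83, 10.06 and 10.06 (log2 change -0.61, SE 0.13, limma adjusted p = 0.00681), and its second probe, at -0.39, did not pass (adjusted p = 0.115). NCKAP1, a subunit of the WAVE complex that starts actin branching, fell from 10.00, 10.15 and 10.16 to 9.36, 9.52 and 9.69. Among the 5 falls that kept their call without any 1 array, and named after their values were seen, were WDR6 (-0.50), KNTC1 (-0.48), LRPPRC (-0.47) and CTNNA1 (-0.42), the last encoding alpha-catenin of the adherens junction.

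The remaining large falls were MVB12B (-0.61) of the ESCRT sorting machinery, the polarity gene LLGL1 (-0.59), the ubiquitin ligase gene UBE2O (-0.58), CLEC16A (-0.57), a regulator of mitophagy, and TBC1D24 (-0.57). They continued with ZNF436 (-0.56), the ephrin receptor EPHA5 (-0.55), the p53-binding protein gene PPP1R13B (-0.54) and ACACB (-0.54), the mitochondrial acetyl-CoA carboxylase. Probes of EPHA5 and ZNF436 were detected on 2 of the 3 C-peptide arrays, and the second probe of ZNF436 changed by -0.08. Leaving out 1 array raised the adjusted p of each of these 9 genes above the threshold, to as much as 0.310 for EPHA5 in limma. The larger falls lost their call as well. Their highest limma adjusted p was 0.128 for NR2C2, 0.179 for RAPGEF6, 0.232 for LATS2, 0.068 for ABCB1 and 0.080 for NCKAP1. Names without a proper symbol moved as far, LOC645472 by 1.11, LOC649209 by 1.02 and MGC40489 by 0.97 among the rises and HS.553068 by -0.66 and LOC642678 by -0.58 among the falls. LOC649209 was detected on 1 of 3 control arrays, and DKFZP781I1119 fell at least 1.01-fold, since it was detected on 1 control array and on 0 C-peptide arrays (limma adjusted p = 0.016).

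The nearest bases upstream of the genes above are shown for 2 of the rises and for 2 replication genes that fell, to let the sequence be set beside the change. Each is the 250 bases before the start from the RefSeq promoter table of GRCh38.p14, 5′ to 3′ on the gene's strand. Capitals mark CCAAT boxes (CCAAT or ATTGG), GC boxes (GGGCGG or CCGCCC) and E2F motifs (TTTCCCGC, TTTCGCGC, TTTGCCGC or TTTGGCGC, or their reverse complement).
PTMA (chr2:231708275-231708524, plus strand): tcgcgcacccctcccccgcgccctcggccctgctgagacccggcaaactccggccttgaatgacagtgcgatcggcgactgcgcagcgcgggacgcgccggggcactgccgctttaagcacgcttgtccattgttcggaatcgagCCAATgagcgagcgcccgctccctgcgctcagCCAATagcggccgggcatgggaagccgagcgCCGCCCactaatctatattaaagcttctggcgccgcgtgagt
CAPZA1 (chr1:112619582-112619831, plus strand): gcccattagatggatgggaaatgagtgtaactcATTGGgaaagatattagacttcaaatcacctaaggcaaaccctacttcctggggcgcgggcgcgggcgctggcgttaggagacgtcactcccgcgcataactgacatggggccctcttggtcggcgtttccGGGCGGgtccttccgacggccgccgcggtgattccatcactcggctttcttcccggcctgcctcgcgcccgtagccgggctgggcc
CDC6 (chr17:40287629-40287878, plus strand): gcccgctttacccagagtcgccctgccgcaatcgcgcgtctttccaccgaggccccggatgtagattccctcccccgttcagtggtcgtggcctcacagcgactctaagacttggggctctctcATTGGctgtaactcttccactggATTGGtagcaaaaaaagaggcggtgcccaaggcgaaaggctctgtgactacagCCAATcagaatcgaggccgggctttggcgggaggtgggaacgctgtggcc
MCM3 (chr6:52284743-52284992, minus strand): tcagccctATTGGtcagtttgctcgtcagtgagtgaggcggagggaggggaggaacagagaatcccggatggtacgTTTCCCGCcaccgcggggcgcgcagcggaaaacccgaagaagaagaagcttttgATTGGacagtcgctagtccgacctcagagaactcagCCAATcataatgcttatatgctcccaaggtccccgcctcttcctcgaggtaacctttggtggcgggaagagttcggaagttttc
PTMA has 2 CCAAT boxes and 1 GC box, CAPZA1 1 of each, CDC6 3 CCAAT boxes, and MCM3 3 CCAAT boxes and 1 E2F motif. A promoter was listed for 8610 of 10429 protein-coding genes tested. A CCAAT box stood in 35.7% of the 244 higher genes with a promoter, 32.8% of the 131 lower ones, 35.9% of all tested and 33.0% of the 27305 promoters in the table. A GC box stood in 62.7%, 74.0%, 68.1% and 42.3%, and an E2F motif in 4.10%, 3.82%, 4.47% and 2.79%. An E box (CACGTG) stood in 10.2%, 6.11%, 9.50% and 6.49%. A TATA box (TATAAA, on the gene's strand only) stood in 6.56%, 2.29%, 3.55% and 7.17%. Differences between these shares were not tested. The median GC content was 62.8% for higher genes, 65.6% for lower genes and 65% over all tested genes. A match describes the letters in the window and does not show that a factor binds there.

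Pseudogenes were called higher far more often than protein-coding genes. A processed pseudogene is a copy of a messenger RNA that was written back into the genome, so its probe may also take up RNA of the gene it was copied from, and the values belong to the probe rather than surely to the pseudogene. The class counted here was taken from the RefSeq gene types after values had been seen, and processed pseudogenes were not separated from others. It had 83 of 333 members called higher (24.9%) and 0 lower in limma, with a median change of 0.13. Protein-coding genes had 292 of 10429 higher (2.80%) and 157 lower (1.51%), with a median of -0.04. Pseudogenes of ribosomal protein genes had 29 of 81 higher (35.8%, median 0.20) and the others 54 of 252 (21.4%, median 0.09). Pseudogenes with a control level of 8 or more had 50 of 170 higher (29.4%) and dimmer ones 33 of 163 (20.2%), so dim and bright probes both showed it. The count of higher pseudogenes was 44 without C-peptide replicate 1 and 46 without control replicate 3. Names that no table matched and that start with LOC had 77 of 552 higher (13.9%) and 6 lower.

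**Figure D2:**
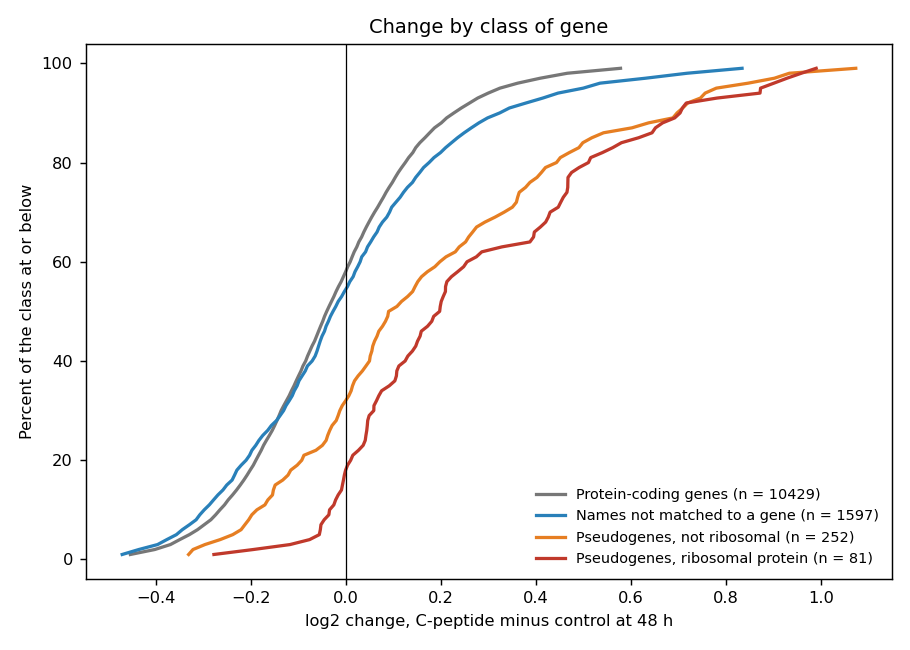
Cumulative share of genes (y axis, percent) at or below each log2 change, C-peptide minus control at 48 h (x axis), for 10429 protein-coding genes, 1597 names not matched to a gene, 252 other pseudogenes and 81 pseudogenes of ribosomal protein genes. Both pseudogene curves lie to the right, with medians of 0.09 and 0.20 against -0.04 for protein-coding genes.

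PPIAP80, named for the cyclophilin gene PPIA, had the largest rise of all named genes and read 9.96, 9.64 and 9.36 in controls and 11.31, 10.84 and 10.99 with C-peptide. PPIA itself read 7.51, 7.38 and 7.24 against 7.77, 7.47 and 7.67, and its change of 0.26 (SE 0.16) did not pass in limma (adjusted p = 0.335). FABP5P1, named for the fatty acid binding protein gene FABP5, rose from 6.26, 6.41 and 6.18 to 7.86, 7.42 and 7.36 (SE 0.13, limma adjusted p = 2.77e-05). FABP5 changed by 0.09 (SE 0.11) on its brightest probe and by 1.01 on a second one, which passed (limma adjusted p = 0.00203). HNRNPA1P52, named for the splicing factor gene HNRNPA1, rose from 9.06, 9.20 and 9.22 to 10.47, 10.23 and 9.98, whereas HNRNPA1 changed by 0.03 (SE 0.09).

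EEF1B2P3 rose by 1.08 while the brightest probe of the elongation factor gene EEF1B2 changed by -0.02 (SE 0.06), and another of its probes passed at 0.33 (limma adjusted p = 0.0297). RPL13P12 rose by 1.02 and RPL36AP8 by 0.98, against 0.24 (SE 0.10) for RPL13 and 0.35 (SE 0.17) for RPL36A, neither of which passed. For 228 pseudogenes the gene they are named for was also tested. Over all 228 the median change was 0.15, against 0.0032 for the 145 distinct named genes, each on its brightest probe, and 161 of the 228 changed more than their named gene. Of the 228, 65 were called higher, and of the 145 named genes 13 were higher and 1 lower. The 65 had a median of 0.64 against 0.09 for their named genes, a description only, since they were picked for being higher. Their 47 distinct named genes included 3 called higher, RPL23A and RBBP4 among them, and 0 called lower. These 47 had a median control level of 11.67, against 9.19 for the 65 pseudogenes. The part of brightness in the contrast was not tested.

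**Figure D3:**
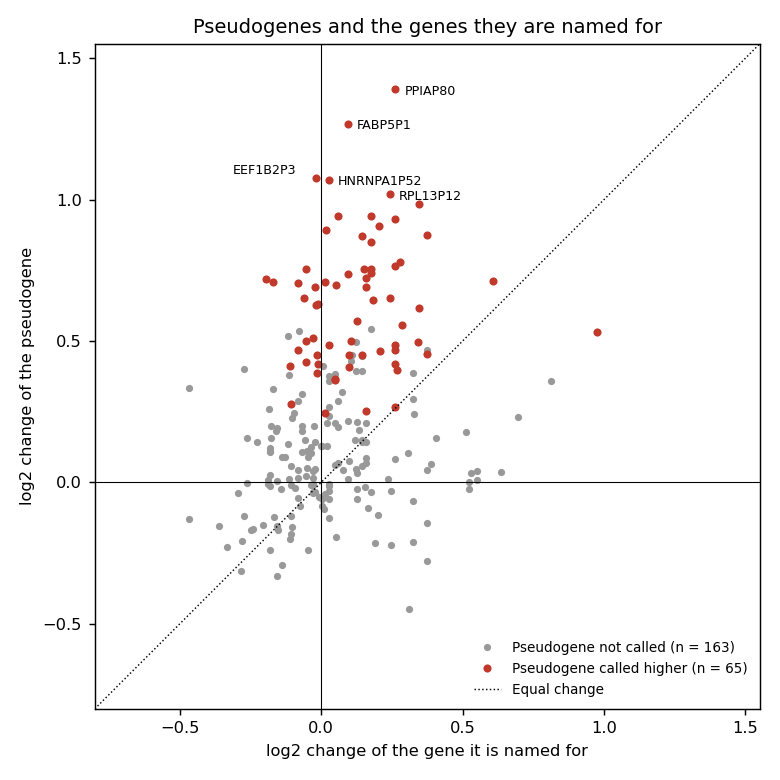
Log2 change of 228 pseudogenes (y axis) against that of the gene each is named for (x axis), C-peptide minus control at 48 h. Red points are the 65 pseudogenes called higher, grey points the others, and the dotted line marks equal change; 161 of all 228 points lie above it, and the red points were picked by their own change.

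Called counts varied between families of few members, beside 65 of 228 over all of them, and a difference between families was not tested. All 3 tested RPL21 pseudogenes, 4 of 6 FTH1, 3 of 4 PPIA and 3 of 5 RPS3A pseudogenes were called higher. The count was 2 of 6 for RPS26 and for RPL23A, 2 of 5 for RPSA, 1 of 9 for HNRNPA1 and 0 of 6 for GUSB. The ferritin heavy chain gene FTH1 changed by 0.18 (SE 0.25), with a wide error.

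On single arrays, the median level of pseudogenes relative to that of protein-coding genes, both centred on their mean over the 18 arrays, was -0.10, -0.12 and -0.12 on the 48 h controls and 0.15, 0.08 and 0.05 with C-peptide at 48 h. It was -0.05, -0.08 and -0.03 with TGF-beta1 and 0.12, 0.14 and 0.09 with both agents. The 18 h controls gave 0.06, -0.01 and -0.07 and the 18 h C-peptide arrays -0.03, -0.06 and -0.07. The step between arrays 6 and 7 of the numbering is also the step from arrays without to arrays with C-peptide at 48 h. With the 18 h controls in place of the 48 h controls, 36 pseudogenes were higher and 2 lower.

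Genomic span showed a gradient among the protein-coding genes, a property chosen after values had been seen. Called rises spanned a median of 22.2 kb, called falls 66.1 kb and all tested genes 30.5 kb. Over 5 groups of equal size from the shortest to the longest genes, the median change was 0.05, -0.01, -0.05, -0.08 and -0.11. In the shortest group 3.45% were called higher and 0.288% lower, and in the longest 1.58% and 3.02%. TGF-beta1 without C-peptide, set against the same control arrays, gave a gradient of similar ends, from 0.05 to -0.08. With C-peptide added to TGF-beta1 the group medians ran from 0.06 to -0.07, and with C-peptide at 18 h they ran the opposite way, from -0.11 to 0.08. On single arrays the shortest group relative to the longest read -0.13, -0.10 and -0.15 on the 48 h controls and 0.09, 0.05 and -0.05 with C-peptide. The TGF-beta1 arrays read from -0.03 to 0.03, inside the range of the C-peptide arrays. The 18 h controls ran from -0.07 to 0.18, a wider range than the -0.05 to 0.09 of the 48 h C-peptide arrays.

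**Figure D4:**
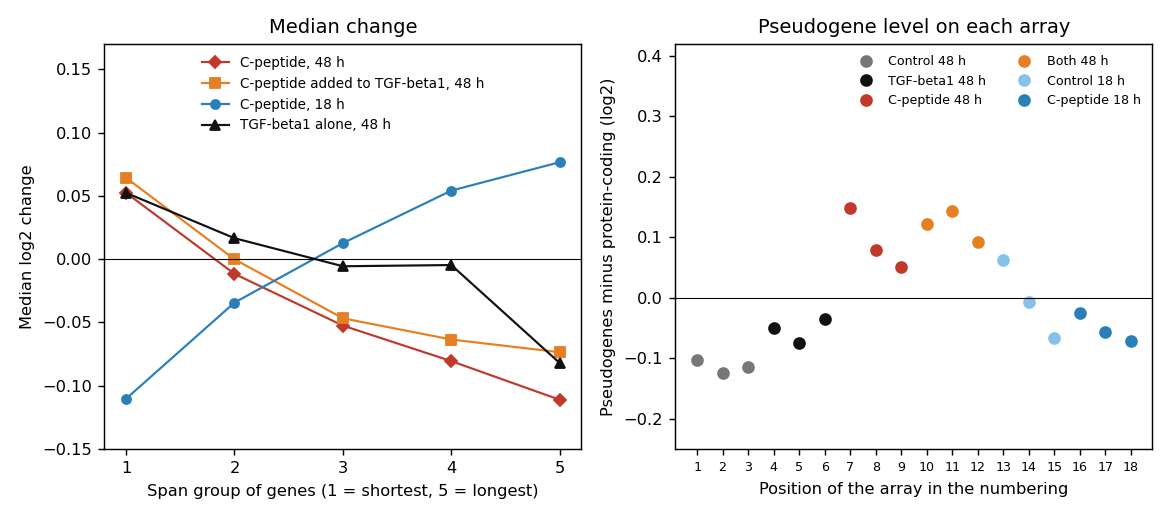
Left, median log2 change (y axis) over 5 groups of 10429 protein-coding genes by genomic span (x axis, 1 is shortest and 5 longest) for C-peptide alone at 48 h, C-peptide added to TGF-beta1 at 48 h, C-peptide at 18 h and TGF-beta1 alone at 48 h; the 3 lines at 48 h fall toward the longest genes and the 18 h line climbs. Right, median log2 level of pseudogenes relative to protein-coding genes (y axis) on each of the 18 arrays in the order of the array numbers (x axis), coloured by group; the values stand at -0.12 to -0.10 on arrays 1 to 3 and 0.05 to 0.15 on arrays 7 to 9.

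Proteins of chromatin had the largest share of called rises among 40 lists of pathways and complexes. The lists were chosen with earlier results of these data known, so this rank is a description only. Of 32 tested, 7 were higher (21.9%) and 0 lower, against 3.82% and 1.49% of all genes, yet the list median was 0.00 and 25 members did not pass in limma. Beside PTMA the 7 were the acidic histone-binding protein ANP32A (0.81, SE 0.13), the nucleosome-binding protein HMGN3 (0.73, SE 0.14), the histone-binding subunit RBBP4 (0.61, SE 0.12), HMGB2 (0.51, SE 0.10), PTMS (0.46, SE 0.12) and the acetyltransferase HAT1 (0.39, SE 0.10). ANP32A read 7.28, 7.27 and 6.95 in controls and 8.16, 7.95 and 7.83 with C-peptide. A dimmer probe of HMGN3 passed at 1.09 and one of HAT1 at 0.43, while the dimmer probes of RBBP4, at 0.32, and HMGB2, at -0.07, did not pass. Leaving out 1 array gave 4 to 9 called members.

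Translation moved in both directions. The cap-binding protein EIF4E rose from 7.29, 7.33 and 7.25 to 8.24, 8.11 and 7.95 (0.81, SE 0.13, limma adjusted p = 0.00109), and its inhibitor EIF4EBP1 rose by 0.63 (SE 0.12). EIF3A and EIF1AX rose by 0.52 (SE 0.10) and 0.50 (SE 0.07), whereas the elongation factor EEF2 fell by 0.39 (SE 0.10) and the poly(A)-binding protein PABPC4 by 0.39 (SE 0.11). That makes 4 higher (10.3%) and 2 lower (5.13%) of 39 tested, against 3.82% and 1.49% of all genes. Ribosomal protein genes had 6 higher (8.11%) and 0 lower of 74, RPS28 by 0.55, RPL7A by 0.52, RPL7 by 0.51, RPL23 by 0.47, RPL23A by 0.38 and RPL37A by 0.31, with a list median of 0.02. Of 43 dimmer probes of ribosomal genes not called, 5 passed as higher and 0 as lower, among them RPLP1 at 1.06, RPSA at 0.84 and RPL14 at 0.83.

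In RNA splicing 4 of 46 genes were higher (8.70%) and 1 lower (2.17%), beside 3.82% and 1.49% of all genes. SRSF11, an SR-family splicing factor, rose from 8.26, 8.57 and 8.28 to 9.37, 9.25 and 9.13 (0.88, SE 0.11, limma adjusted p = 0.000122), HNRNPC by 0.52, SNRPE by 0.44 and LUC7L3 by 0.42, and SF3B2 fell by 0.35. Probes of the same gene disagreed here. Among called genes, a dimmer probe of HNRNPC changed by -0.25, and those of LUC7L3 by 0.74, which passed, and by -0.17. Of 22 dimmer probes of splicing genes not called, 4 passed as higher and 0 as lower in limma. They belonged to HNRNPH1, SRSF3 (1.04), U2AF1 (0.73) and SNRPC (0.45), and the brightest probes of HNRNPH1 and SRSF3 changed by 0.05 and -0.07. In nuclear transport the importin KPNA2 rose by 0.81 (SE 0.11), and the exportin CSE1L and the pore protein NUP98 fell by 0.31 and 0.46, with a list median of -0.14 over 36 genes. NUP98 was detected on 1 of the 3 C-peptide arrays, and its dimmer probe changed by -0.06.

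Among 38 actin genes 4 were higher (10.5%, against 3.82% of all genes), CAPZA1 and with it the ARP2/3 subunit ACTR3 (0.64, SE 0.15), the WAVE subunit WASF1 (0.58, SE 0.16) and destrin, DSTN (0.34, SE 0.09), and 0 were lower. Dimmer probes changed by -0.05 for WASF1 and by 0.03 and 0.05 for DSTN. NCKAP1, which belongs to the same complex as WASF1, fell. Among 29 small GTPases RHOB (0.51) and RHOC (0.28) were higher and RAPGEF6, an exchange factor kept in that list, and RALA (-0.26) lower. That is 6.90% in each direction, against 3.82% higher and 1.49% lower of all genes. In the Hippo pathway LATS2 fell while its partners MOB1B (0.65, SE 0.11) and SAV1 (0.35, SE 0.10) rose, 3 called of 21 (14.3%, against 5.31% of all genes). LATS2 lost its call when 1 array was left out (highest limma adjusted p = 0.232), and leaving out 1 array gave 1 to 4 called members.

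Of 41 replication genes 3 were lower (7.32%) and 0 higher, and of 27 matrix genes 3 were lower (11.1%) and 0 higher, against 1.49% lower and 3.82% higher over all genes. CDC6, which loads the replicative helicase, read 5.97, 6.04 and 6.11 in controls and 5.61, 5.49 and 5.65 with C-peptide (-0.46, SE 0.11, limma adjusted p = 0.023), and the helicase subunits MCM4 and MCM3 fell by 0.44 and 0.27. COL8A1, THBS1 and SPARC, of the matrix, fell by 0.48, 0.42 and 0.35. Dimmer probes changed by 0.03 for MCM4, by -0.09 for MCM3 and by -0.14 and -0.15 for COL8A1, none of which passed, and a dimmer probe of the matrix gene FN1 rose by 0.88 (limma adjusted p = 0.0116). The list medians were -0.10 and -0.14, against -0.04 over all genes. Leaving out 1 array gave 0 to 5 called replication genes and 0 to 4 called matrix genes.

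Smaller counts came from other lists. Proteasome genes PSMD13, PSMA3 and PSMC5 rose by 0.53, 0.38 and 0.34, and the respiratory chain genes NDUFA5, UQCRC2 and COX7B by 0.83, 0.40 and 0.25, 3 of 46 (6.52%) and 3 of 56 (5.36%), near the 3.82% of all genes, with 0 lower in each. CYP51A1 and STARD4 of cholesterol metabolism, the class I gene HLA-C (0.48), the CDK inhibitor CDKN1B and the p53 target PMAIP1 were also higher. The cholesterol count was 2 of 27 (7.41%), beside 3.82% of all genes. With C-peptide at 18 h, 5 of these 27 were called higher, beside 1.16% of all genes. CYP51A1 (0.53) and STARD4 (0.70) were called higher at 18 h too (limma adjusted p = 0.0382 for each). A dimmer probe of PMAIP1 passed at 0.58, and that of CDKN1B changed by -0.07. Among members not called, dimmer probes passed for UQCRH (1.12) and ATP5PB (0.38) of the respiratory chain and for PSMC6 (0.86) of the proteasome. The translocon subunit SEC61A1 (-0.42), the glycosylation subunit RPN1 (-0.29), hexokinase HK1 (-0.45) and the heat shock factor HSF2 (-0.38) were lower. Over all 44 lists, 53 of 1138 tested genes were higher (4.66%) and 27 lower (2.37%), beside 3.82% and 1.49% of all genes, with a median of -0.02. Of 473 dimmer probes of list members that were not called, 42 passed as higher (8.88%) and 4 as lower (0.846%), close to the 8.24% and 1.09% of all dimmer probes.

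**Figure D5:**
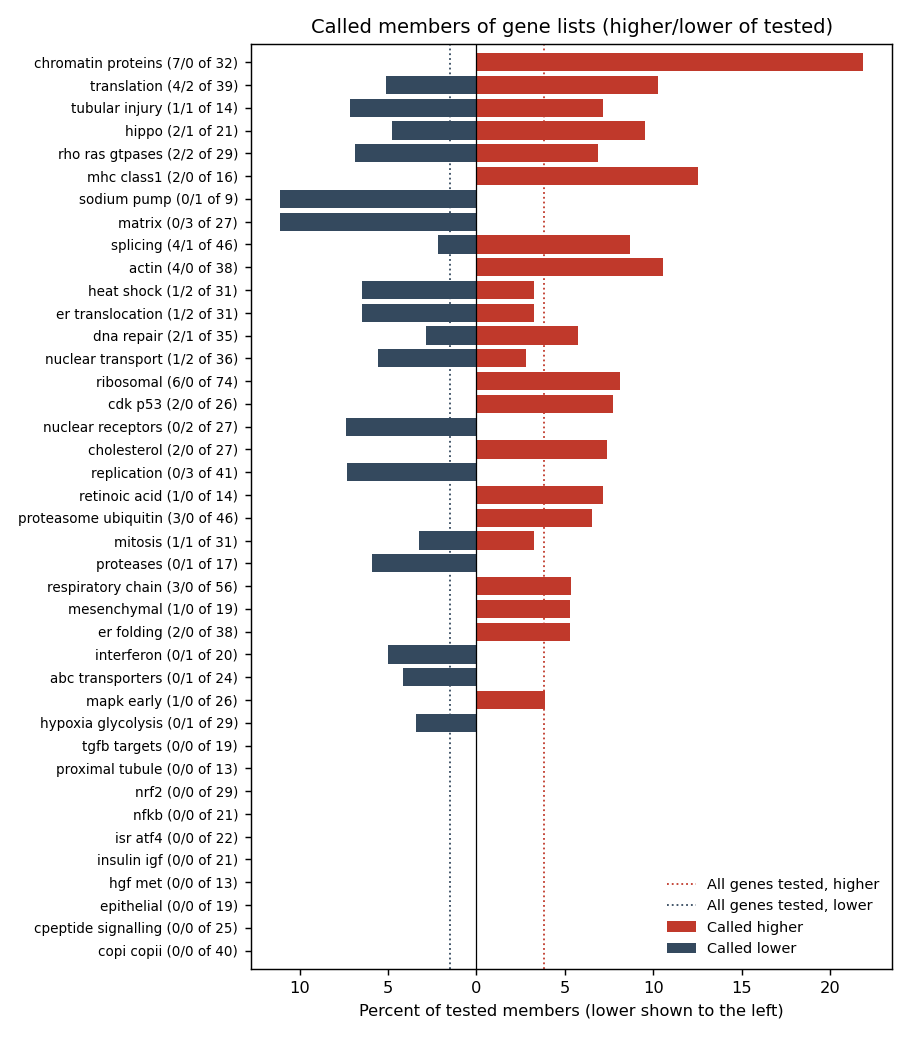
Percent of tested members called higher (red, to the right) and lower (dark blue, to the left) in 40 gene lists, with the numbers in brackets. Dotted lines mark 3.82% higher and 1.49% lower over all genes tested; chromatin proteins reach 21.9%, and 10 lists have no called member.

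None of 25 tested genes of C-peptide signalling was called on its brightest probe (0 by limma, lowest adjusted p = 0.0968), nor was any of 21 insulin and IGF genes (0 called, lowest adjusted p = 0.0956). Over all genes 5.31% were called, so lists this small would hold few called members. A count of 0 or 1 here does not show that a pathway stayed unchanged. Dimmer probes of 2 signalling genes passed, that of the G protein subunit GNAI1 at 0.66 (SE 0.14) and that of the kinase AKT1 at -0.38 (SE 0.10), with limma adjusted p of 0.00485 and 0.0252. Among 26 immediate early and MAP kinase genes 1 was called, SPRY2, a feedback inhibitor of ERK signalling, which rose by 0.31 (limma adjusted p = 0.0499). Of 18 genes chosen for the study's question 11 were tested and 0 were called by limma (lowest adjusted p = 0.177). PPARG changed by -0.05 (SE 0.15) and, on a dimmer probe, by 0.37 (SE 0.14), which did not pass (limma adjusted p = 0.123). The HGF receptor MET changed by 0.28 (SE 0.12), E-cadherin, CDH1, by -0.27 (SE 0.18), and vimentin, VIM, by -0.03 (SE 0.06). Fibronectin, FN1, changed by 0.0067 (SE 0.30) on its brightest probe, by 0.11 (SE 0.31) on another and by 0.88 (SE 0.20) on the dimmer probe that passed. GPR146, proposed as a C-peptide receptor, INS, INSR, NOS3, TGFB1, HGF and RARB did not reach detection on 3 arrays. Genes of TGF-beta targets (19), epithelial junctions (19), the proximal tubule (13), NF-kappaB (21), HGF and MET (13), NRF2 (29) and the integrated stress response (22) had 0 called members each in limma. With 5.31% of all genes called, 0 in lists of this size is near that share. On dimmer probes SLC4A4, a bicarbonate transporter of the proximal tubule, passed at 0.55 and PAX8 at -0.44, where the brightest probes changed by -0.16 and -0.24, and so did 2 genes of the integrated stress response, ATF4 at 0.62 and ASNS at 0.44.

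The comparison was set against C-peptide added to TGF-beta1, which shares no array with it but carries the neighbouring array numbers. Adding C-peptide to TGF-beta1 gave 268 called genes (2.15%), 187 of them higher (1.5%) and 81 lower (0.65%), and 152 of the 476 rises and 20 of the 186 falls were also called there in the same direction. All 30 of the largest changes kept their direction, and 11 of the 15 rises and 3 of the 15 falls were called. PTMA rose by 0.85 there, PPIAP80 by 1.03, PPIB by 0.97 and CAPZA1 by 0.73, and MOB1B changed by -0.01. The difference between both changes was called for 0 of 12463 genes by limma, with a lowest adjusted p of 0.999, and for 386 (3.1%) the unadjusted p was under 0.05. In both comparisons the C-peptide arrays carry higher numbers than their controls. Whether these runs of numbers were separate batches is not given.

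At 18 h, C-peptide gave 292 called genes (2.34%), 144 higher (1.16%) and 148 lower (1.19%), in arrays of neighbouring numbers with their own controls. Of the 476 rises 9 were called there in the same direction and of the 186 falls 0. The difference between the 48 h and the 18 h change passed for 1113 genes (8.93%) in limma, 531 with a higher (4.26%) and 582 with a lower (4.67%) change at 48 h. For the genes named here the same 48 h values chose the gene and enter the difference, so their differences are a description. PTMA changed by 0.17 at 18 h and HLA-G by -0.25, and their differences between times were 0.90 and 1.29 (limma adjusted p = 0.00148 for each). NCKAP1 rose by 0.57 at 18 h (adjusted p = 0.0373 in limma) and fell at 48 h. The count of differences ranged from 171 without control replicate 1 of the 18 h arrays to 2477 without its replicate 3.

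Set against the 18 h controls, which were harvested at the same moment but lie at the other end of the numbering, the 48 h C-peptide arrays gave 407 called genes (3.27%), 284 higher (2.28%) and 123 lower (0.987%). These share the C-peptide arrays with the comparison above and so are not independent of it. Called in both were 170 of the 476 rises and 9 of the 186 falls. PTMA then rose by 0.76, FABP5P1 by 0.72 and CAPZA1 by 0.60, and 12 of the 15 largest rises and 0 of the 15 largest falls were called by limma. Against these controls the direction turned for TBC1D24, EPHA5, MCM3, SF3B2, THBS1 and TIMP2, with changes from 0.010 to 0.076. Pseudogenes called against them were fewer than against the 48 h controls, at 36 and 83.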

How the data were processed

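Intensities of 18 Illumina HumanWG-6 arrays were used. Per the file headers, the deposited table holds mean bead intensity exported from GenomeStudio 1.1.1 without normalization, and a detection value given as a fraction, 1 minus the detection p. Per the file headers it also holds the count of beads behind each value and the SD of their signal. The authors' normalized intensity was deposited separately. GenomeStudio and BeadStudio are named in the submitters' processing notes. Columns were tied to samples by their header names, and groups came from the sample titles.

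In R 4.3.3, neqc (limma 3.58.1) corrected the values (offset 16, quantile normalization, log2). Probes needed a detection p under 0.01 on at least 3 arrays, and the brightest probe stood for its gene. Dimmer probes were fitted the same way with p-values adjusted over all kept probes, after values had been seen. Of 48803 probes, 22068 carried a current RefSeq symbol, 5138 an older one, 1829 were named through a gene ID and 19768 kept their name. A limma model of 6 group means used all 18 arrays and an intensity trend in eBayes, and two-sided p-values were adjusted after Benjamini and Hochberg over all genes. The fit was tested on simulated data. Tables were built with Python 3.11.15.

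The comparison, the gene lists and the rule for named genes (the 15 largest rises and falls among called genes with a proper symbol and groups that do not overlap, called list members, the core list and 3 identifiers a direction) were chosen with earlier results of these data known. P-values measure the spread between flasks of 1 cell line, with 3 flasks a group limiting precision. Alternatives covered scaling, filters, offset, probe choice, weights, controls, a replicate block and each array left out. A few genes that the rule names are not reported here.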

Additional observations from a re-analysis of the deposited data

Results flagged for a closer look

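The change with C-peptide at 48 h differed from that at 18 h for 1113 genes at an adjusted p under 0.05 in limma, and named genes among them are given here with the 48 h change minus the 18 h change on the log2 scale. The array numbers differ between the 48 h and the 18 h arrays as well, so time and array set cannot be told apart in these differences. The 48 h values that chose the genes also enter the difference. Among the largest rises at 48 h the difference was positive for PPIAP80 (1.40), FABP5P1 (1.03), CAPZA1 (1.02), TDP2 (0.74), PPIB (1.07), HNRNPA1P52 (1.05), PTMA (0.90), HLA-G (1.29), RPL13P12 (1.04), SUCO (0.71), RPL36AP8 (0.74) and UGT2B10 (1.13). Among the largest falls it was negative for RAPGEF6 (-1.16), LATS2 (-0.75), ABCB1 (-0.94), MVB12B (-0.91), LLGL1 (-0.79), NCKAP1 (-1.15), CLEC16A (-0.83), TBC1D24 (-0.95), EPHA5 (-1.12) and ACACB (-0.57). List members that were higher at 48 h and had a positive difference were ANP32A (0.86), ANXA3 (0.73), CDKN1B (0.53), EIF1AX (0.31), EIF3A (0.54), EIF4EBP1 (0.92), HLA-C (0.80), HNRNPC (0.59), KPNA2 (0.56), MOB1B (0.55) and MYL9 (0.72). The same held for PMAIP1 (0.54), RHOB (0.68), RHOC (0.41), RPL7 (0.51), RPS28 (0.41), SRSF11 (0.61) and UQCRC2 (0.52). List members that were lower at 48 h and had a negative difference were CSE1L (-0.44), EEF2 (-0.55), HK1 (-0.81), HSF2 (-0.56), MCM3 (-0.44), MCM4 (-0.50), NBN (-0.65), NCOA2 (-0.66), NUP98 (-0.87) and PABPC4 (-0.62). It was also negative for RPN1 (-0.41), SEC61A1 (-0.58), SF3B2 (-0.44), THBS1 (-0.74) and TIMP2 (-0.35). Identifiers without a proper symbol with a positive difference were LOC645472 (1.01), LOC649209 (1.24) and MGC40489 (0.67), and those with a negative one were HS.553068 (-1.15), LOC642678 (-0.78) and DKFZP781I1119 (-0.59). NCOA2 was not detected on any C-peptide array at 48 h. Of the genes compared, only NCKAP1 was called in opposite directions at both times among the 15 largest rises and 15 largest falls.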

How the results depend on the processing

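Leaving out 1 array of the compared groups moved the 662 called genes to between 196 and 1008, the 476 rises to 188 to 562 and the 186 falls to 8 to 446. Pseudogenes called higher went from 83 to between 44 and 86, called list members from 80 to between 25 and 112, and the 1113 differences between 48 h and 18 h to between 171 and 2477. Fitting only the compared groups gave 1307 genes (748 higher, 559 lower), 2 pseudogenes lower, 152 list members and 237 differences between times. Array weights gave 3145 genes (1406 and 1739), 128 pseudogenes higher and 15 lower, 303 list members and 3365 differences between times. The 18 h controls gave 407 genes (284 and 123), with 36 pseudogenes higher and 2 lower, and the mean of both control groups gave 1 pseudogene lower. Without the detection filter 106 genes were lower and 479 differed between times. Median scaling gave 792 genes (567 and 225) and 634 (466 and 168) were called in the authors' normalized values. With genes of a proper symbol alone, an alternative chosen after seeing the data, 471 genes were called. The other counts for these settings, the stricter filter, the mean of probes, the offset of 50 and the fit without a trend stayed within 1.5 times, and the difference with TGF-beta1 had 0 genes in every setting run. With the 18 h controls the change turned positive for TBC1D24 (0.076), EPHA5 (0.039), TIMP2 (0.053), THBS1 (0.023), MCM3 (0.010), SF3B2 (0.011) and LOC642678 (0.0066), and with the mean of probes for TIMP2 (0.013). The cause was not tested. Replicates of the same number did not deviate together (correlations -0.12, -0.22 and -0.20), and those of different numbers had correlations from 0.04 to 0.19. Deviations from a mean of 3 arrays are tied to each other, so these values cannot decide whether the numbers pair the flasks. A replicate block gave 605 genes (454 and 151), 1232 differences between times, 82 pseudogenes higher and 72 list members. A block for runs of array numbers was not run, because the control and C-peptide arrays fall in separate runs.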
